A study of Mus musculus with 133 samples.

Results

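Hepatocytes of very old male mice (VOM, 100 weeks) were compared 96 h after partial hepatectomy (PH) or sham surgery. The libraries were those labelled VOM at 4 days, the paper's 96 h, after PH or sham, without the sham library marked X, since 3 unmarked libraries remained in its group. They were 3 PH and 3 sham libraries of the 133 in the series, and 11017 of the 11049 genes in the table were tested. All animals of the series were wild-type C57BL/6 mice. PH removed the left and median lobes, whereas sham surgery was a midline opening and closing of the abdomen under inhalation anaesthesia, so that both groups had been anaesthetised and operated on. Hepatocytes were pelleted at low speed after collagenase perfusion of the liver, and their poly(A) RNA was counted at the 3' end by 3'UTR-seq, a CEL-seq2 method with unique molecular identifiers (UMIs). The other groups compared were PH and sham at 96 h in young males (YM, 11 to 14 weeks), old males (OM, 60 weeks) and very old females (VOF, 100 weeks), and PH and sham at 52 h in VOM, with 3 libraries in each group.

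The liver regrows after the loss of lobes because the remaining hepatocytes, which are quiescent in the adult, re-enter the cell cycle. Growth factors and cytokines carry them from G1 into S phase, where cyclin-dependent kinases and E2F factors switch on the replication genes, and the MuvB complex with B-Myb and FoxM1 then switches on the genes of G2 and mitosis. During this time the liver keeps up plasma protein synthesis and metabolism, and in aged mice cell cycle entry is known to be slower. Setting PH against sham surgery at the same hour asks which genes differ because of the loss of tissue rather than the operation alone.

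The PH libraries held 1503610 to 1856772 counts and the sham libraries 639524 to 1043191, so that every PH library was deeper than every sham library, and depth and surgery cannot be told apart in these 6 libraries. Counts were scaled to the TMM-adjusted library size and are given as CPM, the usual depth-scaled read count, and 10827 to 10877 genes were detected in a PH library and 10251 to 10607 in a sham library. Libraries of the same group correlated at 0.924 to 0.964 in log2(CPM + 1) and libraries of different groups at 0.884 to 0.921, as a description over genes that share their libraries. The labels give each library a numbered mix, and PH 1, PH 2, sham 1 and sham 2 shared mix 13, while PH 3 came from mix 19 and sham 3 from mix 23. In bulk RNA, fewer cells of a type and less RNA per cell cannot be told apart. The hepatocyte markers were abundant, with albumin (Alb) at 6027, 7066 and 6177 CPM after PH and 9348, 7294 and 10100 CPM after sham surgery.

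At 96 h the VOM hepatocytes that had gone through PH carried more RNA of mitotic genes, of interferon-stimulated genes, of some acute phase genes, of the keratins Krt8 and Krt18 and of 4 NRF2 targets. They carried less RNA of 12 male-biased genes, most of them Mup genes, of 7 lipogenic genes, of the carriers Slc10a1 and Slco1a1 and of 3 liver transcription factors. In all, 556 genes were higher (5.05% of those tested) and 263 lower (2.39%) after PH, in edgeR's quasi-likelihood test with a Benjamini-Hochberg adjusted p under 0.1 and a change of 2-fold or more, which makes 819 genes (7.43%). Such genes are said below to have risen or fallen, and fold changes are log2 values of PH against sham with their standard error. The PH and sham libraries did not overlap in CPM for 1663 genes that were higher (15.1%) and 1543 that were lower (14.0%), whether called or not. Over all genes tested the median log2 fold change was 0.016. Within mix 13 alone 420 genes were higher and 204 lower. With the 6 libraries thinned to the lowest total among them, an alternative chosen after seeing the data, 478 were higher and 210 lower, whereas 345 were higher and 141 lower with the mix as a covariate. With 1 of the 6 libraries left out, 462 to 555 genes were higher and 200 to 293 lower.

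**Figure D1:**
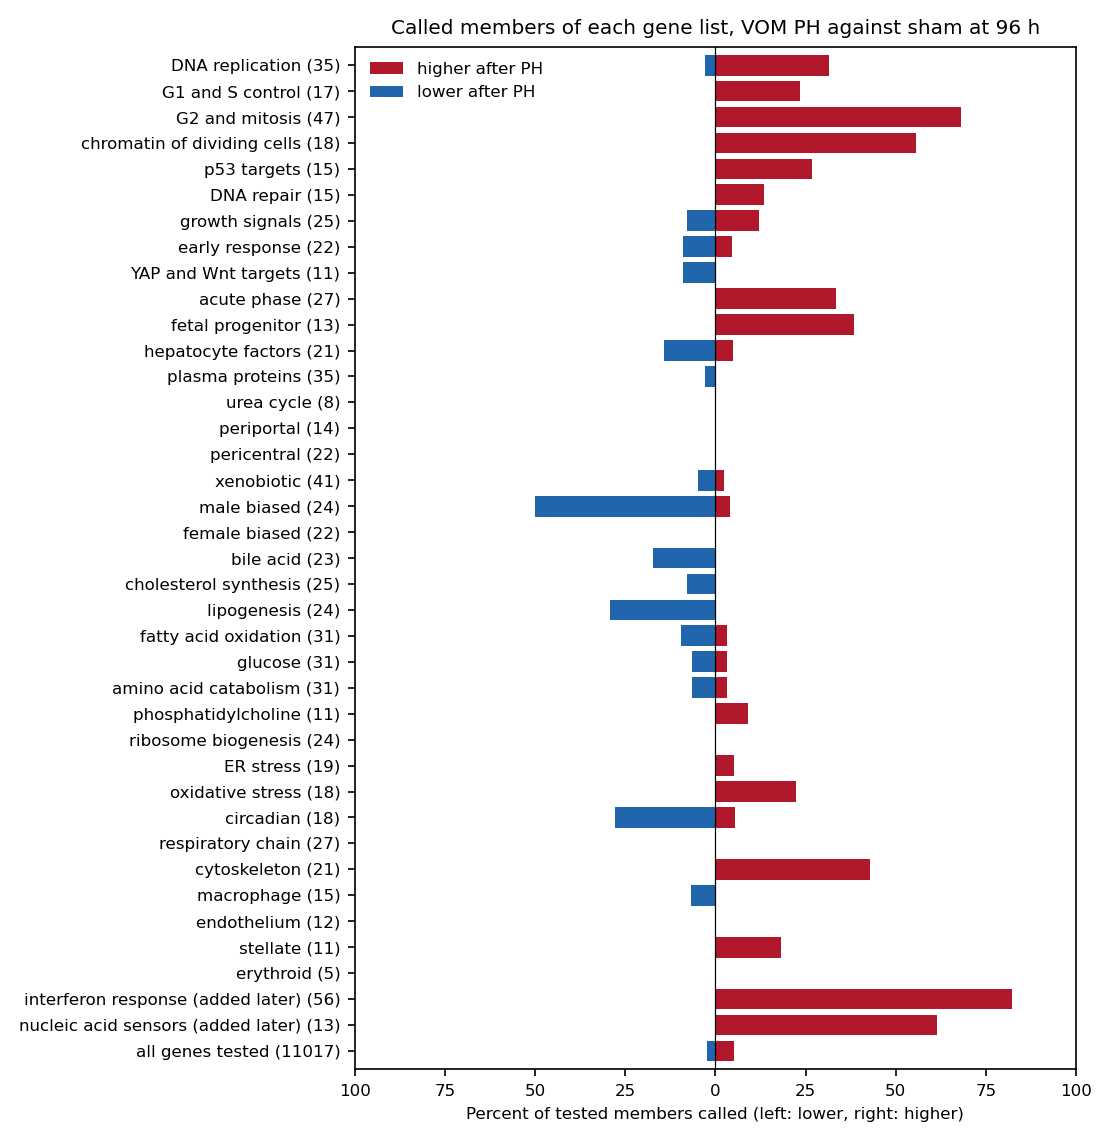
Share of the tested members of each gene list that were called higher (red, to the right) or lower (blue, to the left) after PH than after sham surgery in VOM at 96 h, in percent, with the number of tested members in brackets and all 11017 genes in the bottom row. The G2 and mitosis list and the interferon response list extend furthest to the right, with 32 of 47 and 46 of 56 members higher. The male-biased list extends furthest to the left, with 12 of 24 lower, most of them Mup genes.

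Among called genes with at least 10 counts on average whose groups did not overlap, the 15 with the largest rise were mostly genes of cell division. Prc1 (chr7:80294450-80316259 on GRCm38), which bundles the microtubules of the spindle midzone, was at 488, 1065 and 731 CPM after PH and had 0 counts in every sham library, and Anln, a scaffold of the cleavage furrow, was at 93.6, 134 and 94.6 CPM against 0. With the 3 sham libraries set to a floor of 3 counts over the group, Prc1 was at least 631-fold and Anln at least 90.8-fold higher. Bard1, the partner of BRCA1, and Kif18a, a kinesin of chromosome alignment, were also at 0 in every sham library and at least 14.1-fold and 13.5-fold higher. The midzone kinesin Kif20a had 1043 counts over the PH libraries and 3 over the sham libraries, a ratio of 152 in CPM with a 95% counting interval of 51.9 to 738. Ncaph, a condensin subunit, had a ratio of 52.9 (9.31 to 2110), Cdca3, which acts at entry into mitosis, 44.6 (15.1 to 217) and Knstrn, a spindle protein, 43.7 (7.67 to 1740). Cdca2, which brings a phosphatase to chromosomes, was at 96.6, 285 and 195 CPM after PH and 7.28, 0 and 0 CPM after sham surgery, and Kifc1, a kinesin that focuses spindle poles, at 39.5, 94.1 and 58.1 CPM after PH and 4.55, 0 and 0 CPM after sham surgery. All of these genes lay between 0 and 7.28 CPM in the sham libraries and at 11.4 CPM or more in each PH library. The floor and the counting intervals treat the deposited values, which were corrected for UMIs and between datasets, as molecules counted. The intervals do not cover the spread among libraries.

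The other members of these 15 were not genes of mitosis. Ly6d, a surface protein of early progenitor cells, was at 456, 218 and 265 CPM after PH and 12.7, 0 and 7.36 CPM after sham surgery (log2 fold change 5.35 ± 0.55, adjusted p = 4.71e-11). Slpi, a secreted protease inhibitor, had a ratio of 51.6 (9.08 to 2050), and its call was lost without PH 1, the highest library, where the log2 fold change was 4.22. Il33, a nuclear cytokine released by damaged cells, had a ratio of 33.7 (11.4 to 164), and Isg15, a ubiquitin-like protein, is described with the interferon genes below. Rad54b, an ATPase of homologous recombination (chr4:11558922-11615805 on GRCm38), had a level that no other group shared. It had 3564, 4001 and 3711 counts in the PH libraries and 1 count over the sham libraries, and no more than 4 counts in any of the other 66 libraries in the fit. Its level is given as deposited, and whether it is expression was not tested.

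Of the 47 genes tested in a list of G2 and mitosis, 32 rose and none fell (68.1% against 5.05% of all genes), the PH and sham libraries did not overlap for 41 (against 15.1%), and the median log2 fold change was 3.37, or 2.98 with the 8 genes at 0 in every sham library set to their lower bounds. The kinases were among the most abundant. Plk1, which drives several steps of mitosis, was at 1095, 1839 and 1329 CPM after PH and 66.4, 0 and 62.6 CPM after sham surgery (4.96 ± 0.9), so that sham 2 was at 0 while sham 1 and sham 3 were not. Cdk1, the kinase that triggers mitosis, was at 116, 257 and 174 CPM after PH and 9.1, 5.98 and 8.59 CPM after sham surgery (4.47 ± 0.53, adjusted p = 3.54e-09), and its cyclins rose with it, Ccnb1 by 3.83, Ccnb2 by 3.84 and Ccna2 by 2.48. Aurka, a spindle pole kinase, rose by 4.26 ± 0.64. Of the genes of chromosome structure, Top2a, which untangles sister DNA, was at 119.9, 190.0 and 138 CPM after PH and 22.8, 2.99 and 13.5 CPM after sham surgery (3.37 ± 0.5) and Cenpa, the histone of the centromere, at 29.4, 75.2 and 57.1 CPM after PH and 8.19, 7.47 and 6.14 CPM after sham surgery. The outer kinetochore subunit Spc25 rose by 3.26 ± 0.36 and the passenger protein Birc5 by 3.07. Mki67, the coat of mitotic chromosomes and a common marker of cycling cells, was at 57.5, 120.1 and 116 CPM after PH and 7.28, 5.98 and 4.91 CPM after sham surgery (3.96 ± 0.55). In each of these genes PH 2 was the highest and PH 1 the lowest of the PH libraries, and no sham library reached PH 1. Leaving out 1 library gave 26 to 33 called members, and mix 13 alone gave 24. Foxm1, the transcription factor of this program, rose by 2.92 from low levels (3.95, 13.6 and 10.8 CPM after PH and 1.82, 0 and 1.23 CPM after sham surgery), a call that was lost without PH 2, PH 3 or any 1 of the sham libraries (2.5 to 3.63).

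**Figure D2:**
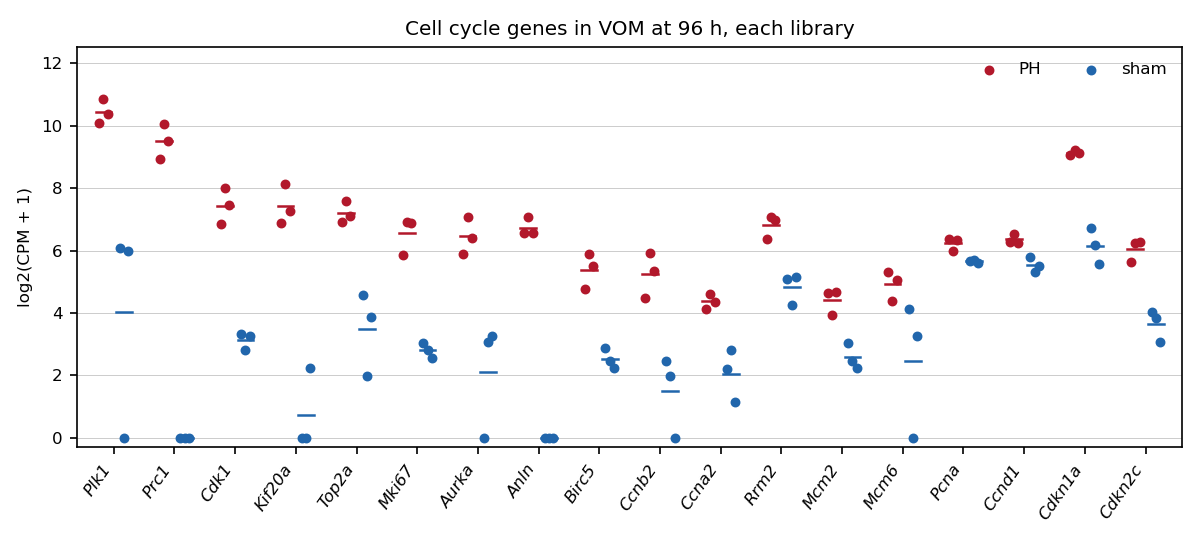
Level of 18 cell cycle genes in each VOM library at 96 h as log2(CPM + 1), with PH in red, sham in blue and a bar at the mean of 3 libraries. Prc1 and Anln lie at 0 in all sham libraries, Plk1 in 1 of them, and the 3 PH points lie above the 3 sham points for every gene shown, by less than 1 log2 unit at the means for Pcna and Ccnd1.

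Promoters of mitotic genes are known to carry the cell cycle genes homology region (CHR), to which the MuvB complex binds. The letters TTTGAA, searched on both strands from 250 bases before to 50 bases after the start of each gene in RefSeq (GRCm38.p6), were in the window of 28 of the 38 list members that had one (73.7%) and of 20 of the 25 called members (80.0%), against 17.9% of all 32851 windows and 1183 of 7891 tested genes with any window. The CCAAT box was in 29 of the 38, against 37.4% of all windows and 43.5% of tested genes. The windows shown are those of the 4 called members of smallest p that hold the CHR letters, which are in capitals, apart from members on a chromosome left out of the display.
Prc1: ctctggctcggTTTGAAttccgcggggt
Spc25: gcggtggagagTTTGAAattgaaagact
Cdk1: accgcggcgagTTTGAAactgctggcac
Mki67: cgccgttttggTTTGAAtcgggcgggct
They lie at chr7:80294435-80294462 on the plus strand, chr2:69206173-69206200 on the minus strand, chr10:69352911-69352938 on the minus strand and chr7:135716461-135716488 on the minus strand, and each is written along the strand of its gene. A match of letters is a description of the sequence and not a site of binding.

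The genes of DNA replication moved less. Of 35 tested, 11 rose and 1 fell (against 5.05% and 2.39% of all genes), the median log2 fold change was 0.81, and 19 did not overlap and were higher (against 15.1% of all genes). Rrm2, the ribonucleotide reductase subunit that supplies deoxynucleotides in S phase, was at 82.1, 135 and 126 CPM after PH and 32.8, 17.9 and 34.4 CPM after sham surgery (1.97 ± 0.35, adjusted p = 4.95e-05). Of the licensing helicase, Mcm2 was at 24.2, 14.2 and 24.7 CPM after PH and 7.28, 4.48 and 3.68 CPM after sham surgery (1.97 ± 0.39), Mcm5 rose by 1.84 ± 0.52 and Mcm6 by 1.69 ± 0.43. Dck, which salvages deoxynucleosides, rose by 1.97 ± 0.44. Pcna, the sliding clamp, was at 82.6, 62.7 and 79.2 CPM after PH and 50.04, 50.8 and 47.9 CPM after sham surgery, a log2 fold change of 0.6 ± 0.21 that did not reach 2-fold. Mcm10, which helps to load the polymerases, was the member that fell, from 51, 65.7 and 44.2 CPM after sham surgery to 15.4, 16 and 14.4 after PH (-1.8 ± 0.37), with no overlap. The number of members that rose was 7 without sham 1 or sham 3, and 4 with the mix as a covariate.

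The E2F letters TTTNGCGC, searched on both strands, were in the windows of 8 of the 26 replication genes that had one (30.8%) and of 4 of the 10 called (40.0%), against 1.38% of all windows and 2.88% of tested genes with any window. The windows of the 2 called helicase subunits of smallest p that hold them are shown with the motif in capitals, with the same chromosome left out.
Mcm6: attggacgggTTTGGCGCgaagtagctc
Mcm5: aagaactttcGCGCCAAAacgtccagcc
They lie at chr1:128359735-128359762 on the minus strand and chr8:75109350-75109377 on the plus strand, and in Mcm5 the motif is on the opposite strand.

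Of 17 genes that control G1 and entry into S phase, 4 rose and none fell (against 5.05% and 2.39% of all genes). Cdkn2c, an inhibitor of the cyclin D kinases, was at 48.8, 74.6 and 76.6 CPM after PH and 15.5, 13.4 and 7.36 CPM after sham surgery (2.42 ± 0.31), E2f1, an activator of replication genes, at 23.7, 26 and 25.7 CPM after PH and 8.19, 7.47 and 13.5 CPM after sham surgery (1.37 ± 0.38), and Cks1b, which helps the kinases to bind substrates, and Rbl1, a relative of the retinoblastoma protein, rose by 2.26 and 2.56. Cyclin D1 (Ccnd1), the cyclin of the G1 phase, was higher in each PH library (76.9, 91.7 and 75.6 CPM after PH and 54.6, 38.8 and 44.2 CPM after sham surgery) but at 0.8 ± 0.35 did not reach 2-fold. Among 18 chromatin genes of dividing cells 10 rose, with the histone chaperone Asf1b at 55.4, 63.9 and 37.5 CPM after PH and 11.8, 0 and 6.14 CPM after sham surgery (2.91 ± 0.49), the condensin subunit Ncapd2 at 1.9 ± 0.34, the maintenance DNA methyltransferase Dnmt1 at 1.24 ± 0.3 and the histone variant H2afx at 1.31 ± 0.39. The count of this list was 6 without sham 3, where H2afx was no longer called (1.17), 5 within mix 13 and 4 with the mix as a covariate.

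Of 15 genes that p53 switches on, 4 rose and none fell (against 5.05% and 2.39% of all genes). Cdkn1a, which encodes the kinase inhibitor p21, was at 536, 595 and 558 CPM after PH and 106, 71.7 and 46.6 CPM after sham surgery (2.89 ± 0.55, adjusted p = 0.000143). Trp53inp1, a stress protein of the same pathway, was at 134, 193 and 198 CPM after PH and 30.9, 53.8 and 47.9 CPM after sham surgery (2.01 ± 0.36). The remaining called members were Ccng1 (1.11 ± 0.26), a cyclin that regulates p53, and Sesn2 (1.07 ± 0.33), which restrains growth under stress, and Mdm2, the ligase that degrades p53, was at 0.59 ± 0.19 and not called. Without sham 1, which had the highest Cdkn1a of the sham libraries, the calls of Ccng1 (0.95) and Sesn2 (1.05) were lost and the list held 2. Sesn2 was also lost without PH 3 (0.95) or sham 3 (0.99). Of 15 genes of DNA repair 2 rose (against 5.05% of all genes), among them Rad50 (13.2, 8.88 and 12.9 CPM after PH and 5.46, 7.47 and 3.68 CPM after sham surgery, 1.11 ± 0.41), part of the complex that holds broken ends, whose call was lost without PH 1 (1.0), PH 3 (1.04), sham 1 (1.11) or sham 3 (0.93).

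The signals of regeneration did not move together. Of 25 ligands and receptors 5 were called (against 7.43% of all genes). The receptors Tgfbr2 (1.25 ± 0.35) and Osmr (1.9 ± 0.63), for TGF-beta and oncostatin M, and the EGF receptor ligand Tgfa (1.28 ± 0.45) rose, and the LIF receptor Lifr and the vascular growth factor Vegfa fell. Vegfa was at 27.7, 47.4 and 37.5 CPM after PH and 95.5, 105 and 108 CPM after sham surgery (-1.46 ± 0.22, adjusted p = 1.38e-06) and Lifr at 43, 48.5 and 43.2 CPM after PH and 149, 94.1 and 115 CPM after sham surgery (-1.43 ± 0.34), without overlap. The receptors Met (-0.02) and Egfr (-0.38), for hepatocyte growth factor and EGF, did not pass the test. The call of Tgfa was lost without PH 1 or any 1 sham library (1.19 to 1.46), and that of Osmr without PH 2 (1.54), sham 1 (1.78) or sham 2 (1.46). Of 22 immediate early and cytokine response genes 3 were called (against 7.43% of all genes). Klf6, a zinc finger factor, rose (54, 86.4 and 59.1 CPM after PH and 17.3, 20.9 and 20.9 CPM after sham surgery, 1.76 ± 0.33), Socs2 fell and Klf10 fell (-1.22 ± 0.37, not called without PH 1, at -1.06), while Jun (-0.53) and Fos (-0.21) did not pass. Of 11 targets of YAP and Wnt signalling only Tcf7 was called, a share near the 7.43% of all genes. It was lower (-1.62 ± 0.63, at 1.32 to 8.96 CPM), a call lost without any 1 library but PH 2 (-1.83 to -1.3).

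Interferons signal through receptors and STAT and IRF factors to genes whose products restrict viruses, sense nucleic acids or present antigen. Of 56 tested genes in a list of interferon-stimulated genes, 46 rose and none fell (82.1% against 5.05% of all genes), and for 50 the PH libraries lay above the sham libraries without overlap (against 15.1%). The median log2 fold change was 1.95. The list was compiled after these genes were seen among the called genes, so its count describes them and is not independent evidence. Isg15 was at 186, 114 and 139.9 CPM after PH and 5.46, 4.48 and 3.68 CPM after sham surgery (4.97 ± 0.33, adjusted p = 4.44e-18), and Ifit1, which binds foreign RNA, at 841, 723 and 607 CPM after PH and 47.3, 31.4 and 36.8 CPM after sham surgery (4.2 ± 0.26). Rsad2 (viperin), which makes an antiviral nucleotide, was at 421, 463 and 303 CPM after PH and 24.6, 16.4 and 23.3 CPM after sham surgery (4.17 ± 0.25). These genes rose from low levels to more than 100 CPM in each of the 3 PH libraries.

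Feedback and transcription factors of the pathway were among them. Usp18, which removes Isg15 from proteins and damps the receptor, was at 87, 61 and 72.5 CPM after PH and 7.28, 0 and 2.45 CPM after sham surgery. Irf7, which amplifies interferon production, was at 148, 58.6 and 97.2 CPM after PH and 17.3, 13.4 and 6.14 CPM after sham surgery (3.0 ± 0.29). The immunity GTPases Igtp (2.39 ± 0.25), Iigp1 (1.22 ± 0.2), Ifi47 (1.54 ± 0.22) and Gbp7 (1.73 ± 0.29) had higher sham levels and smaller folds. Cxcl10, a chemokine that draws T cells, was at 94, 56.2 and 76.6 CPM after PH and 8.19, 10.5 and 8.59 CPM after sham surgery (3.08 ± 0.44). The antigen peptide transporter Tap1 rose by 1.21 ± 0.3, and lost its call without PH 1 (0.93). The class I chain partners B2m (1762, 1468 and 1465 CPM after PH and 1451, 1579 and 1878 CPM after sham surgery, -0.06 ± 0.13) and H2-K1 (-0.28 ± 0.14) did not pass the test. For 15 of the 56 genes the lowest of the 3 PH libraries was above each of the other 69 libraries in the fit, which held for 38 genes of the whole table (0.345%).

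None of 10 receptor chains, kinases and feedback inhibitors of the interferon pathways was called in edgeR's test, and no interferon gene itself was tested, with the kinase Jak1 at 0.06 ± 0.11, the feedback inhibitor Socs3 at -0.89 ± 0.42 and the receptor chain Ifnar1 at -0.81 ± 0.42 (1 of the 10 at an unadjusted p under 0.05, against 24.6% of all genes, and none called by DESeq2). Socs3 was called lower without PH 2 (-1.36) or sham 1 (-1.32). Of 13 nucleic acid sensors and their adaptors, a list also compiled after the data were seen, 8 rose (against 5.05% of all genes), 5 of which are members of the interferon list too, so that the lists are not separate evidence. Among them were Ddx58 (RIG-I), at 98, 88.2 and 93.6 CPM after PH and 17.3, 25.4 and 15.9 CPM after sham surgery (2.28 ± 0.18), Zbp1, which senses left-handed nucleic acid (2.93 ± 0.26), Dhx58 (2.65 ± 0.26), Samhd1, a nucleotide hydrolase (1.27 ± 0.24), and Ifih1 (MDA5, 1.88 ± 0.21), while the adaptor Mavs was at -0.72 ± 0.16 and not called. Leaving out 1 library gave 43 to 46 called interferon-stimulated genes, mix 13 alone 44 and the mix as a covariate 42. The summed level of 15 macrophage markers overlapped, at 684 to 2432 CPM after PH and 675 to 2065 after sham surgery, and PH 1 and sham 1 were the highest of their groups. The part of these cells in the result was not tested.

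The interferon-stimulated response element (ISRE), the site of the STAT and IRF complex, was searched as 2 copies of GAAA with any 2 bases between them, on both strands, a motif added after the data were seen. It was in the windows of 23 of the 44 interferon-stimulated genes that had one (52.3%) and of 21 of the 36 called (58.3%), against 3.44% of all windows and 4.02% of tested genes with any window. The 4 windows shown are those of called members of smallest p that hold it, with the motif in capitals and the same chromosome left out.
Rsad2: tggtccaacTTTCATTTTCagaaaacag
Ifit1: cagtctcagTTTCAGTTTCtcactgctg
Isg15: aaggaaaccGAAACAGAAAatagctctg
Trim30a: gttctttagTTTCTTTTTCtcagttcct
They lie at chr12:26456554-26456581 on the minus strand, chr19:34640795-34640822 on the plus strand, chr4:156200866-156200893 on the minus strand and chr7:104465211-104465238 on the minus strand. The motif is on the strand of the gene in Isg15 and on the opposite strand in Rsad2, Ifit1 and Trim30a, a ubiquitin ligase gene that rose by 3.0 ± 0.24.

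**Figure D3:**
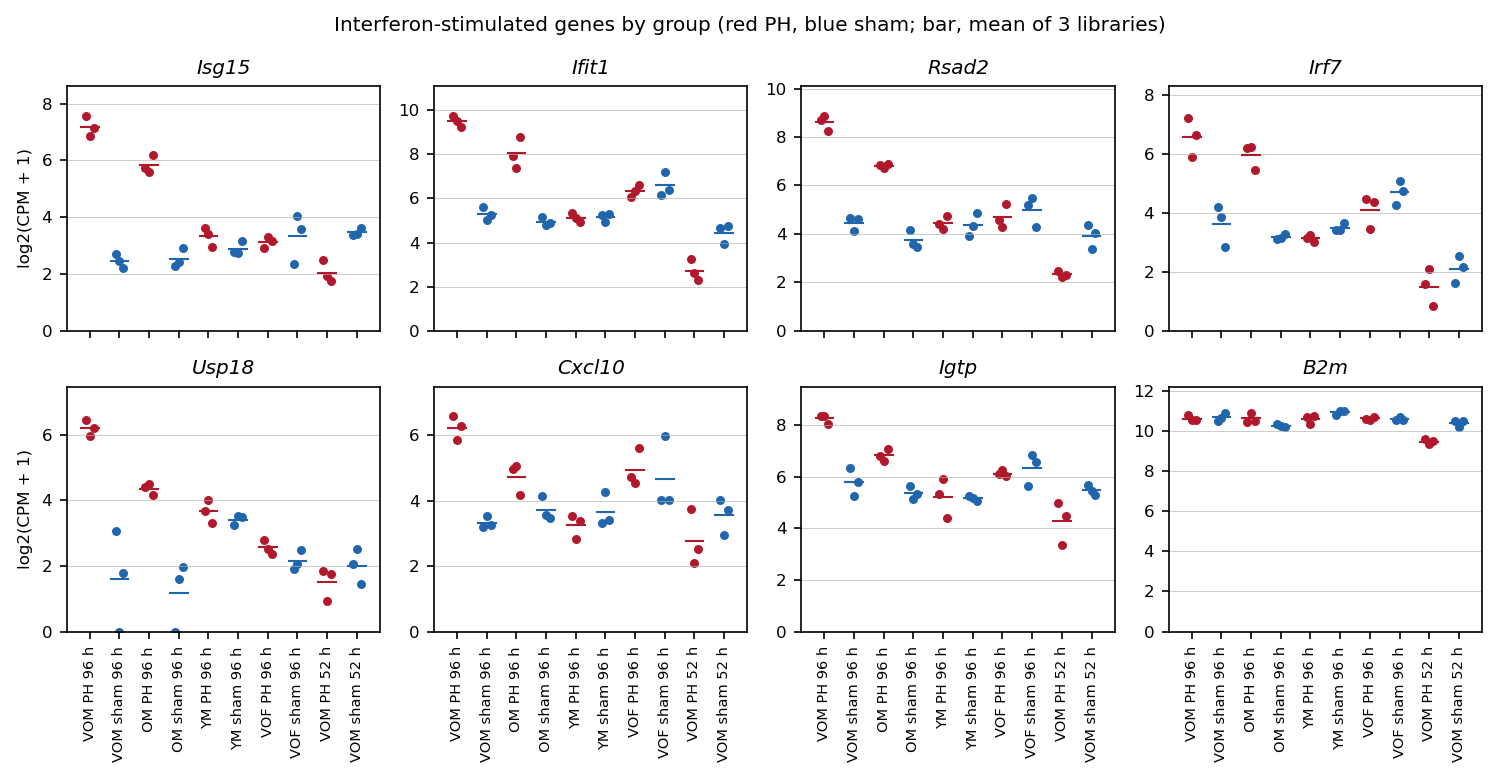
Level of 8 interferon-stimulated genes as log2(CPM + 1) in each library of 10 groups, PH in red and sham in blue, with a bar at the mean of 3 libraries. VOM PH at 96 h lies highest for Isg15, Ifit1, Rsad2, Irf7, Cxcl10 and Igtp, with OM PH at 96 h next for Isg15, Ifit1, Rsad2 and Irf7, whereas B2m varies little among the groups at 96 h.

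Acute phase proteins, which the liver secretes under interleukin-6 and interleukin-1, rose in part. Of 27 tested 9 rose and none fell (against 5.05% and 2.39% of all genes), and the median log2 fold change was 0.61. The iron carrier binder Lcn2 was at 2159, 2921 and 2127 CPM after PH and 469.5, 417 and 396 CPM after sham surgery (2.49 ± 0.49, adjusted p = 0.000285), with each PH library above each sham library. Serpina3n, a protease inhibitor, was at 619, 959 and 702 CPM after PH and 340.3, 294 and 299 CPM after sham surgery (1.28 ± 0.28), and the metal binder Mt2 rose by 1.57 ± 0.37. The serum amyloid genes Saa1 (1360, 4098 and 2293 CPM after PH and 755, 1357 and 925 CPM after sham surgery, 1.35 ± 0.5) and Saa2 (1.81 ± 0.62) and the orosomucoid Orm2 (1.1 ± 0.3) rose too, with PH 2 the highest library in each, and for Saa1 PH 1 lay just above sham 2. Without PH 2 the list held 4 called members, and Saa1 (0.86), Saa2 (1.1), Orm2 (0.78) and the endotoxin binder Lbp (0.76 against 1.03 ± 0.28) were no longer called. Saa1 and Saa2 were also lost without sham 1 (1.17 and 1.59) or sham 3 (1.32 and 1.81), and Lbp without sham 1 (0.95). Hp (0.28), Crp (-0.35) and Hamp (-0.98), for haptoglobin, C-reactive protein and the iron hormone hepcidin, did not pass the test. Hamp was called lower without PH 2 (-1.42).

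Some genes of the cytoskeleton were higher after PH. Of 21 genes of the cytoskeleton and junctions 9 rose and none fell (against 5.05% and 2.39% of all genes). The hepatocyte keratins Krt8 (711, 494 and 564 CPM after PH and 201, 219.6 and 149.7 CPM after sham surgery, 1.63 ± 0.21, adjusted p = 3.58e-08) and Krt18 (412, 333 and 379.5 CPM after PH and 88.3, 176 and 98.2 CPM after sham surgery, 1.65 ± 0.21) rose by nearly the same amount. The tubulins Tuba1b (1.2 ± 0.21), Tubb4b (1.24 ± 0.31), Tubb2a (1.28 ± 0.42) and Tubb6 (2.58 ± 0.42) rose as well, of which Tubb2a was not called without PH 2 (1.1) or sham 1 (1.03), and the other 3 tubulins of the list were not called. Of 13 tested genes in a list of fetal liver and progenitor cells 5 rose (against 5.05% of all genes), namely Ly6d, the biliary factor Sox9 (125, 252 and 117 CPM after PH and 48.2, 68.7 and 68.7 CPM after sham surgery, 1.42 ± 0.37), the annexins Anxa2 (2.06 ± 0.26) and Anxa5 (1.2 ± 0.23) and osteopontin, Spp1 (2.45 ± 0.62). Only 13 of the 24 genes listed were in the table, without Afp, Gpc3 and Mest, and Igf2 and Dlk1 had means of 0.369 CPM after PH. The list therefore cannot show a fetal program. The call of Sox9 was lost without PH 2 (1.0), that of Anxa5 without PH 1 (0.86) and that of Spp1 without sham 1 (1.68).

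Targets of NRF2, the factor of the response to electrophiles, rose in a few members. Of 18 genes of oxidative stress 4 rose (against 5.05% of all genes). The glutathione transferases Gstm3 (868, 137 and 401 CPM after PH and 70.1, 41.8 and 46.6 CPM after sham surgery, 3.12 ± 0.41) and Gsta1 (58.4, 14.2 and 39.6 CPM after PH and 1.82, 2.99 and 3.68 CPM after sham surgery, 3.78 ± 0.58) rose, as did sulfiredoxin, Srxn1 (184, 52.1 and 198 CPM after PH and 29.1, 28.4 and 19.6 CPM after sham surgery, 2.49 ± 0.29), and the quinone reductase Nqo1 (2.7 ± 0.61). In each of them PH 2 was the lowest PH library, and all PH libraries lay above all sham libraries. Of 19 genes of endoplasmic reticulum stress only Psat1, an enzyme of serine synthesis, was called, and it rose (2.52 ± 0.69). Of 11 genes of phosphatidylcholine synthesis only Chka, the choline kinase, was called, and it rose, at 76.4, 262 and 98.2 CPM after PH and 33.7, 46.3 and 46.6 CPM after sham surgery (1.79 ± 0.43). Chka, at 1.08, was not called without PH 2. Both shares were near the 7.43% of all genes. Neither nucleolar genes (24, with Npm1 at -0.2 and Bop1 at 0.25) nor nuclear genes of the respiratory chain (27, with Uqcrfs1 at -0.33 and Cox6c at -0.04) held a called member in edgeR's test. Of these 3 and 8 genes were at an unadjusted p under 0.05, and DESeq2 called 1 and 0.

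Male-biased liver genes, which depend on the pulses of growth hormone acting through STAT5, made up the list with the largest share of falls, 12 of 24 (against 2.39% of all genes) with 1 rise and a median log2 fold change of -1.26. Hsd3b5, a male-specific steroid enzyme, was at 0.439, 0.592 and 6.17 CPM after PH and 6.37, 102 and 43 CPM after sham surgery (-4.25 ± 0.81), and Slco1a1, an organic anion carrier, at 129, 42.6 and 159 CPM after PH and 185, 825 and 425 CPM after sham surgery (-2.1 ± 0.39). The urinary proteins Mup3 (2129, 2656 and 2544 CPM after PH and 6665, 6536 and 7840 CPM after sham surgery, -1.52 ± 0.29), Mup7 (-1.36 ± 0.3), Mup1 (-1.33 ± 0.3) and Mup12 (-1.35 ± 0.3) fell alike, but these genes are nearly identical, so that their counts cannot be separated and they are not independent. Mup16 (-1.3), Mup17 (-1.3) and Mup21 (-1.34) fell too. Most of the 12 falls were thus of Mup genes, so that the count of the list holds this family several times. Sham 1 was the lowest sham library for Hsd3b5 and Slco1a1, while PH 3 had the most Hsd3b5 after PH. The member that rose was Selenbp2 (437, 65.7 and 201 CPM after PH and 44.6, 77.7 and 78.5 CPM after sham surgery, 1.84 ± 0.37), where PH 2 lay inside the sham range. The fall of Cyp4a12a (36.5, 15.4 and 105 CPM after PH and 114, 604 and 34.4 CPM after sham surgery) rested mostly on sham 2, without which it was -0.53, and was not called without PH 1 (-2.0) or PH 2 (-1.79) either, and that of Nudt7 (-1.31 ± 0.24) was not called without PH 1 (-0.99). Leaving out 1 library gave 10 to 13 members lower. None of 22 female-biased genes was called by edgeR (2 at an unadjusted p under 0.05, 1 called by DESeq2), with Cyp17a1 at 0.36 and Cyp2c69 at -0.93.

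Direct targets of STAT5 that feed back on the growth hormone receptor were also among the 15 genes with the largest fall. Cish was at 20.2, 13.6 and 27.3 CPM after PH and 104, 132 and 88.4 CPM after sham surgery (-2.38 ± 0.49) and Socs2 at 29, 15.4 and 35.5 CPM after PH and 138, 114 and 135 CPM after sham surgery (-2.26 ± 0.47), without overlap in either. The rest of the 15 were Clec2h (-3.5 ± 0.6), a C-type lectin, Sult2a8 (34.3, 76.9 and 85.9 CPM after PH and 298, 459 and 355 CPM after sham surgery, -2.5 ± 0.34), a sulfotransferase of bile acids, Car3 (157, 354 and 406 CPM after PH and 1468, 1711 and 1302 CPM after sham surgery, -2.29 ± 0.51), a carbonic anhydrase abundant in male liver, Cyp8b1 (153, 45 and 114 CPM after PH and 498, 465 and 385 CPM after sham surgery, -2.1 ± 0.48), the enzyme that directs bile acid synthesis to cholic acid, and Csad (-2.07 ± 0.45), an enzyme of taurine synthesis. Arrdc3, an adaptor that takes receptors to degradation, was at 46.1, 52.1 and 54 CPM after PH and 228, 218 and 252 CPM after sham surgery (-2.2 ± 0.33). Gm816 (-2.34), Syt3 (-2.27), Hcn3 (-2.22), Gm11434 (-2.2) and Gm13773 (-2.17) completed them with Hsd3b5 and Slco1a1, at no more than 57.7 CPM in any library.

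**Figure D4:**
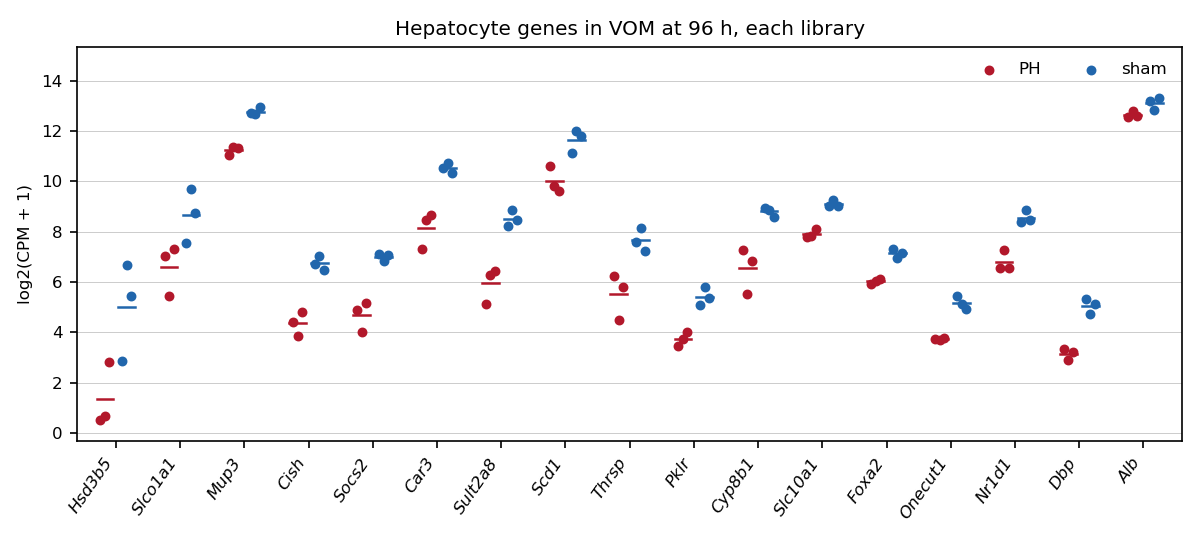
Level of 16 genes that fell and of albumin (Alb) in each VOM library at 96 h as log2(CPM + 1), PH in red, sham in blue, with a bar at the mean of 3 libraries. The 3 PH points lie below the 3 sham points for each gene, with the widest spread among replicates in Hsd3b5 and Slco1a1 and a shift of less than 1 log2 unit at the means for Alb.

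Enzymes of fatty acid and triglyceride synthesis fell, 7 of 24 (against 2.39% of all genes) with none higher and a median log2 fold change of -0.74. Scd1, the desaturase, was at 1559, 897 and 792 CPM after PH and 2256, 4049 and 3592 CPM after sham surgery (-1.61 ± 0.45), Thrsp, a lipogenic activator, at 75.5, 21.3 and 55.5 CPM after PH and 193, 281 and 151 CPM after sham surgery (-2.0 ± 0.46) and Pklr, liver pyruvate kinase, at 10.1, 12.4 and 15.4 CPM after PH and 32.8, 55.3 and 40.5 CPM after sham surgery (-1.73 ± 0.31). The elongases Elovl5 (-1.14 ± 0.21) and Elovl6 (-1.3 ± 0.33) and the phosphatidate phosphatase Lpin1 (-1.69 ± 0.43) fell, while Fasn, fatty acid synthase, at -0.86 ± 0.29 did not reach 2-fold. Fasn was called lower without PH 1 (-1.1) or sham 3 (-1.04). The glucose carrier Slc2a2 fell with them, at 154, 132 and 216 CPM after PH and 496, 435 and 449 CPM after sham surgery (-1.46 ± 0.29). Of 31 genes of sugar metabolism 3 were called, a share near the 7.43% of all genes. Besides Slc2a2 and Pklr this was Pgd of the pentose phosphate pathway, which rose (1.23 ± 0.28) and was not called without PH 1 (0.8).

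Of 31 genes of fatty acid oxidation and PPAR-alpha targets 3 fell and 1 rose (against 2.39% and 5.05% of all genes). The fatty acid binding protein Fabp1 (92.7, 149.7 and 254 CPM after PH and 325, 409 and 393 CPM after sham surgery, -1.18 ± 0.3) and the thiolase Acaa1b (-1.1 ± 0.43) fell, and the hydroxylase Cyp4a31 rose (52.3, 54.5 and 80.2 CPM after PH and 12.7, 4.48 and 0 CPM after sham surgery, 3.25 ± 0.68). PH 1 was the lowest library for both, and without it neither was called (-0.9 for Fabp1 and -0.82 for Acaa1b), while Acaa1b, with 1 library left out, was called only without PH 3. Sterol synthesis held 2 called genes of 25, a share near the 7.43% of all genes. They were Stard4, a cholesterol carrier (-1.59 ± 0.3), and Sc5d (-1.1 ± 0.23, not called without sham 2, at -0.95), both lower. In bile acid metabolism 4 of 23 fell (against 2.39% of all genes). The 4 were the carriers Slc10a1 (NTCP, 219, 228 and 277 CPM after PH and 523, 608 and 515 CPM after sham surgery, -1.18 ± 0.18), Slco1a1 and Abcg8 (-1.12 ± 0.27, not called without sham 3, at -0.97), and Cyp8b1. Cyp7a1, the enzyme that opens the pathway, was at 68.1, 11.8 and 45.8 CPM after PH and 158, 85.2 and 117 CPM after sham surgery (-1.51 ± 0.65) and with 1 library left out was called only without PH 1 (-2.06).

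Of 41 genes of drug and steroid metabolism 3 were called, a share near the 7.43% of all genes. The carboxylesterase Ces3b (246, 216 and 333 CPM after PH and 758, 890.4 and 767 CPM after sham surgery, -1.6 ± 0.24) and the aldehyde oxidase Aox3 (-1.12 ± 0.28, not called without PH 1, at -0.99) fell, and Cyp2c55 rose, with 108 counts over the PH libraries and 2 over the sham libraries (a ratio of 23.6, 6.38 to 197). Of 31 enzymes of amino acid breakdown 3 were called, against 7.43% of all genes, while 26 of the 31 had a negative log2 fold change (median -0.55), 19 lay lower without overlap (against 14.0%) and 21 were at an unadjusted p under 0.05 (against 24.6%). The tyrosine aminotransferase Tat rose (1.57 ± 0.56) and Gnmt (-1.01 ± 0.24), which consumes the methyl donor, and Got1 (-1.02 ± 0.27), a transaminase, fell by close to 2-fold. These calls were lost without PH 3 (1.41, -0.96 and -0.96) or sham 2 (1.52, -0.97 and -0.84), those of Gnmt and Got1 also without sham 3 (-1.0 and -0.94), that of Tat without sham 1 (1.27) and that of Got1 without PH 1 (-0.93). No gene of the urea cycle (8, with Otc at -0.5 and Arg1 at -0.15), of the periportal list (14, with Cyp2f2 at -0.9 and Hsd17b13 at 0.06) or of the pericentral list (22, with Cyp2c29 at -0.74 and Rgn at -0.05) was called in edgeR's test. At an unadjusted p under 0.05 there were 3, 7 and 7 of them, against 24.6% of all genes, and DESeq2 called none. Cyp2f2 was called lower without PH 1 (-1.02).

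Secreted plasma proteins were lower as a sum, at 65070 to 74430 CPM after PH and 91360 to 109400 after sham surgery over 35 genes. Of the 35, 31 had a negative log2 fold change (median -0.47) and 24 were at an unadjusted p under 0.05 (against 24.6% of all genes). Without overlap 20 lay lower (against 14.0%) and 3 higher (against 15.1%). Only 1 was called (against 7.43%), Serpina6, the cortisol carrier (60.2, 109.5 and 81.8 CPM after PH and 280.2, 148 and 207 CPM after sham surgery, -1.36 ± 0.45), which was not called without PH 1 (-1.17) or sham 1 (-1.1). Of 21 liver transcription factors 3 fell and 1 rose (against 2.39% and 5.05% of all genes). The pioneer factors Foxa2 (60.2, 64.5 and 69.4 CPM after PH and 157, 122 and 142 CPM after sham surgery, -1.13 ± 0.22, adjusted p = 0.000204) and Foxa1 (-1.57 ± 0.34) and Onecut1, or HNF6 (12.3, 11.8 and 12.9 CPM after PH and 42.8, 34.4 and 29.4 CPM after sham surgery, -1.54 ± 0.49, not called without sham 1, at -1.36), fell. Nr0b2 (SHP), a repressor of bile acid synthesis, rose (44.4, 63.3 and 21.1 CPM after PH and 16.4, 17.9 and 20.9 CPM after sham surgery, 1.22 ± 0.38), a call lost without PH 2 (0.87) or sham 1 (1.12). Hnf4a (-0.11) and Cebpa (-0.91) did not pass the test.

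Of 18 clock genes 5 fell and 1 rose (against 2.39% and 5.05% of all genes). The repressor Nr1d1 (REV-ERB-alpha) was at 92.7, 155 and 92.6 CPM after PH and 332, 462 and 348 CPM after sham surgery (-1.75 ± 0.39), the output factors Tef (-1.39 ± 0.39) and Dbp (9.22, 6.51 and 8.23 CPM after PH and 39.1, 25.4 and 34.4 CPM after sham surgery, -2.05 ± 0.69) fell, as did Per3 (-1.51 ± 0.48) and Bhlhe41 (-2.85 ± 0.75), and the activator Npas2 rose (11.4, 50.9 and 16.5 CPM after PH and 0, 7.47 and 3.68 CPM after sham surgery, 2.99 ± 0.81). Dbp was not called without sham 1 (-1.9) or sham 3 (-2.01), Per3 without sham 3 (-1.35) and Npas2 without PH 2 (2.13) or sham 1 (2.21), and 2 members fell within mix 13. All operations were in the morning by the paper's methods, and the hour at which each animal was killed is not given in the sources used here.

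Markers of other liver cells were present in all libraries. The summed level of 12 endothelial markers was 420 to 507 CPM after PH and 634 to 700 after sham surgery, without overlap, and 11 of the 12 had a negative log2 fold change, but none was called by edgeR or DESeq2 (7 at an unadjusted p under 0.05, Clec4g -0.55, Ptprb -0.9). Ptprb was called lower without sham 2 (-1.09). Of 15 macrophage markers only H2-Ab1, a class II chain, was called (77.8, 11.8 and 13.9 CPM after PH and 155, 44.8 and 49.1 CPM after sham surgery, -1.27 ± 0.4), and not without PH 2 (-0.87), PH 3 (-0.9) or sham 1 (-0.4), while Clec4f, a marker of Kupffer cells, was at 438, 108 and 157 CPM after PH and 348, 88.2 and 184 CPM after sham surgery. The summed markers of stellate cells overlapped (298 to 372 and 242 to 362 CPM). In this list Col1a2 (18, 23.1 and 17 CPM after PH and 4.55, 5.98 and 2.45 CPM after sham surgery, 2.15 ± 0.57) and Lum (1.06 ± 0.41) rose, and Lum was not called without PH 1 (1.07), PH 3 (0.97), sham 2 (1.03) or sham 3 (0.73). Of the bile duct markers Krt19, Krt7 and Epcam were not in the table, and the 3 tested, Sox9, Spp1 and Tm4sf4, summed to 195 to 348 CPM after PH and 90.1 to 151 after sham surgery. Ptprc, the leukocyte antigen CD45, was called higher (66.8, 13.6 and 27.3 CPM after PH and 28.2, 5.98 and 15.9 CPM after sham surgery, 1.02 ± 0.4), but not without PH 1 (0.19), sham 2 (0.7) or sham 3 (0.98), and the lymphocyte sum was lower after PH (98.8 to 157 against 164 to 248 CPM). No neutrophil marker was in the table, and of 5 erythroid genes none was called by edgeR or DESeq2 (2 at an unadjusted p under 0.05, Alas2 -0.88, Hba-a1 1.23). Alas2 was called lower without PH 3 (-1.1), sham 1 (-1.01) or sham 3 (-1.03). The mitochondrial share of counts was 4.39% to 5.36% after PH and 5.34% to 7.0% after sham surgery. The part of these cells in the results above was not tested, and depth was addressed only by the thinning of the 6 libraries.

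The response of VOM at 96 h was then compared with that of the other groups by a test of the difference between the fold changes in the same fit. In YM 306 genes were higher (2.78%) and 203 lower (1.84%) after PH (4.62% together), and 315 genes (2.86%) differed from VOM, 208 with the larger value in VOM. Of the interferon-stimulated genes 3 of 56 rose in YM and 34 had a larger response in VOM, none a smaller one (against 1.89% and 0.971% of all genes). This list was compiled after its genes were seen to rise in VOM at 96 h. Its counts against YM, OM, VOF and 52 h therefore describe these genes and are not independent evidence. Isg15 was at 11.4, 9.68 and 6.66 CPM after PH and 5.82, 5.7 and 7.84 after sham surgery in YM, a difference of the log2 fold changes of 4.48 ± 0.53 (adjusted p = 4.03e-08), and Ifit1 at 39.8, 33.3 and 29.8 CPM after PH and 36.8, 29.8 and 38.7 CPM after sham surgery (4.24 ± 0.37). The number of such genes was 31 to 36 with 1 VOM library left out and 24 with the mix as a covariate.

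Of the cell cycle lists 7 genes had a larger response in VOM than in YM (against 1.89% of all genes). They were 2 of 35 replication genes and 5 of 47 genes of G2 and mitosis, with none of 17 G1 genes or 18 chromatin genes. Rrm2 was at 10.1, 6.66 and 11.4 CPM after PH and 9.69, 26.3 and 11.1 after sham surgery in YM, a difference of 2.71 ± 0.55 (adjusted p = 0.00202), and the others were Aurka (3.38 ± 0.9), Spc25 (2.04 ± 0.52), Cenpa (2.42 ± 0.61), Ect2 (4.08 ± 1.23), a factor of cytokinesis, Mad2l1 (2.88 ± 0.93), a spindle checkpoint protein, and Dck (1.82 ± 0.6). In YM 21 of the 47 genes of G2 and mitosis rose, and 5 of the 47 differed between the ages, so that for most of the list no difference was detectable at this depth. None of the 5 was called with the mix as a covariate, and 2 to 5 were with 1 VOM library left out. Dck was lost without PH 1 (1.48), sham 1 (2.02) or sham 2 (1.38), Ect2 without sham 1 (3.32) or sham 3 (3.98), Aurka without sham 1 (2.62) and Mad2l1 without any 1 library but PH 1 (2.46 to 4.0).

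The largest differences from YM by the rule were Rad54b, Kif18a (4.57, 0 and 7.83 CPM after PH and 5.17, 5.7 and 5.99 after sham surgery in YM), Gm5621 and Gm5406, for which a VOM group was at or near 0 counts so that no fold is given (adjusted p = 0.0532, 0.0268, 0.0273 and 0.00943). In the other direction, Slc13a5, the citrate carrier, was at 15.1, 9.07 and 11.8 CPM after PH and 3.23, 1.75 and 2.31 CPM after sham surgery in YM and at 5.27, 10.7 and 6.17 CPM after PH and 10.9, 10.5 and 13.5 CPM after sham surgery in VOM (-3.03 ± 0.72). It was followed by Fabp4 (-2.66 ± 0.78), a fatty acid binding protein, Vasn (-2.57 ± 0.81) and H2-Q1 (-2.45 ± 0.72). Without single libraries the calls of Fabp4 (without PH 2, sham 1 or sham 3, -2.55 to -2.32), Vasn (without PH 1, PH 3, sham 1 or sham 3, -2.54 to -2.42) and H2-Q1 (without sham 1 or sham 3, -2.21 and -2.24) were lost.

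OM, the age nearest to VOM, had the fewest genes that differed from VOM. There 416 genes were higher (3.78%) and 243 lower (2.21%), and 80 genes (0.726%) differed in response from VOM. This count was 18 with the replicate number as a block, 1 with the mix as a covariate and 44 to 105 with 1 VOM library left out. No gene of the cell cycle lists differed in edgeR's test or by DESeq2 (1 of 35 replication genes, 3 of 17 G1 genes, 2 of 47 genes of G2 and mitosis and 1 of 18 chromatin genes at an unadjusted p under 0.05), and 33 of the 47 genes of G2 and mitosis rose in OM. Of the interferon-stimulated genes 41 of 56 rose in OM, and Isg15 was at 52.7, 47.4 and 71.7 CPM after PH and 3.85, 4.38 and 6.49 after sham surgery. The one member that differed was Iigp1, at 517, 702 and 354 CPM after PH and 659.6, 475 and 324 CPM after sham surgery in OM (1.07 ± 0.28), a call that was lost without PH 1 (0.99), PH 3 (1.08), sham 1 (0.99) or sham 2 (0.96). Clec2h was at 43.7, 95 and 16.9 CPM after PH and 34.6, 60.6 and 36.8 CPM after sham surgery in OM and differed by -3.99 ± 0.76, and Cib3, a calcium binding protein, by -3.13 ± 0.59 (adjusted p = 0.00402 and 0.00402). Cyp8b1, which fell in VOM, was at 1383, 1371 and 2116 CPM after PH and 757, 809.7 and 1767 CPM after sham surgery in OM, a difference of -2.64 ± 0.66 that was not called without PH 2 (-2.28). Txnip, a brake on glucose uptake, was at 24.2, 53.9 and 26.7 CPM after PH and 37.3, 25.4 and 52.8 CPM after sham surgery in VOM and at 12.3, 6.67 and 25.3 CPM after PH and 290.0, 57.3 and 109.6 CPM after sham surgery in OM (3.7 ± 0.82). The others named by the rule were Zbtb16 (3.94 ± 0.93), Ocrl (-3.43 ± 0.76) and Dynlt1a (-2.86 ± 0.76, lost without any 1 library but PH 1, -2.9 to -2.82), with Rad54b and Gm4953, which had a group at or near 0. The depth of OM was uneven, from 294889 to 3385701 counts after PH, and 3 genes after PH and 7 Mup genes after sham surgery held more counts in OM than the UMI correction can give (34065.4).

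Females of the same age lacked most of the interferon response of VOM at this threshold. In VOF 357 genes were higher (3.24%) and 222 lower (2.02%, together 5.26%), and 319 (2.9%) differed from VOM. Of the interferon-stimulated genes, a list compiled after its members were seen to rise in VOM, 1 of 56 rose in VOF, and 43 had a larger response in VOM (against 1.93% of all genes), 40 to 44 with 1 VOM library left out and 34 with the mix as a covariate. Irf7 was at 20.9, 9.95 and 19.5 CPM after PH and 18, 32.8 and 25.5 after sham surgery in VOF, a difference of 3.63 ± 0.4. The list of G2 and mitosis rose in VOF too, with 41 of 47, and Prc1, at 83.2, 155 and 116 CPM after PH and 7.61, 10.5 and 11 CPM after sham surgery in VOF, and Bub1b were the 2 that differed, both with a VOM sham group at or near 0. Of the other cell cycle lists Cdkn2c (1.43 ± 0.39, lost without sham 3, at 1.21), Mcm10 (-1.97 ± 0.57, lost without sham 2, at -1.82) and Ncaph differed.

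No male-biased gene fell in VOF in edgeR's test, while 3 of 24 rose (10 at an unadjusted p under 0.05, in either direction). Members near 0 in female sham libraries, such as Slco1a1, could not be seen to fall there. Of the same list 5 fell in YM, 4 in OM and 7 in VOM at 52 h (against 1.84%, 2.21% and 8.63% of all genes). The response of 6 of the 24 was lower in VOM than in VOF (against 0.962% of all genes). Mup3 was among them, at 2184, 616 and 1249 CPM after PH and 1307, 1293 and 1342 CPM after sham surgery in VOF (-1.56 ± 0.4, adjusted p = 0.0181). By the rule, the neurotrophin receptor Ntrk2 (-4.37 ± 1.14) and Dbf4, a replication kinase subunit (-3.98 ± 1.13, lost without sham 1, at -3.76), differed in the other direction. Rnf39, Cyp2g1, Gm38070, Slco1a1 and Cib3 had a group at or near 0 in one sex, and Slco1a1 was at 7.18, 0.524 and 2.32 CPM after PH and 0, 0.455 and 0.58 CPM after sham surgery in VOF.

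Between 52 h and 96 h in VOM, 1518 genes (13.8%) differed in response, 967 with the larger value at 96 h (8.78%) and 551 with the smaller (5.0%). The libraries at 52 h came from mixes 9 and 22 and those at 96 h from mixes 13, 19 and 23. In levels set side by side, time and mix therefore cannot be told apart. The sham libraries at 52 h held 3584500 to 5311112 counts, against 639524 to 1043191 at 96 h. This comparison is also limited by the sham libraries at 52 h, in which 16 genes hold more counts than the UMI correction can give (34065.4), up to 519233, against none in the 6 libraries at 96 h. Among them were Sgo2a, Cyp2a5, Gm8722 and 9030619P08Rik, the 4 largest differences by the rule, for which no fold is given. Of the interferon-stimulated genes, a list compiled after its members were seen to rise at 96 h, 45 of 56 had a larger response at 96 h and none a smaller one. At 52 h 2 of them rose and 17 fell, against 803 (7.29%) and 951 (8.63%) of all genes. Ifit1 was at 8.53, 5.06 and 3.9 CPM after PH and 24.6, 14.2 and 25.6 after sham surgery at 52 h, a difference of 6.1 ± 0.44 (adjusted p = 6.89e-17).

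Of the 47 genes of G2 and mitosis 18 rose at 52 h, and 16 had a larger and 1 a smaller response at 96 h. Cdk1 was at 109.5, 46.5 and 104 CPM after PH and 38.8, 26.4 and 38.1 after sham surgery at 52 h, and the difference was 3.18 ± 0.69. For Mki67, at 89.2, 30.8 and 69.4 CPM after PH and 20.4, 12.2 and 23 CPM after sham surgery, it was 2.26 ± 0.74. In both genes the sham libraries at 52 h lay above those at 96 h without overlap, and the PH levels of Cdk1 at 96 h (116, 257 and 174 CPM) lay above those at 52 h without overlap while those of Mki67 (57.5, 120.1 and 116 CPM) overlapped. Ccnb2 differed by 3.05 ± 1.05, a call lost without sham 3 (2.51). The smaller response was that of Cenpe, a kinetochore motor that had 0 counts in each sham library at 52 h. The lipid droplet protein Cidec (15.7, 41 and 23.4 CPM after PH and 1.05, 1.35 and 1.3 CPM after sham surgery at 52 h, -4.62 ± 1.11, lost without sham 1, at -3.35) and Fabp4 (17.7, 33.6 and 23.4 CPM after PH and 1.57, 1.35 and 0.866 CPM after sham surgery, -5.1 ± 0.88) rose at 52 h and were not called at 96 h. Fgf21, a fasting hormone, had 0 counts in each PH library at 96 h, so that no fold is given, and was at 45.2, 8.29 and 8.57 CPM after PH at 52 h. Over the 4 cell cycle lists 28 genes had a larger and 2 a smaller response at 96 h (against 8.78% and 5.0% of all genes). They were 5 and 1 of 35 replication genes, 4 and 0 of 17 G1 genes, 16 and 1 of 47 genes of G2 and mitosis and 3 and 0 of 18 chromatin genes.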

How the data were processed

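Expected counts were deposited by the authors for 133 libraries of mouse hepatocyte RNA read by CEL-seq2 3'UTR-seq. Per the paper's methods, reads were mapped to GRCm38, collapsed by UMI with a correction for 4096 UMIs, filtered for low expression and corrected between datasets with ComBat-Seq, and which libraries formed a dataset is not given in the sources used here. The submitters' processing notes also name bcl2fastq 2.20. Values were rounded to whole numbers (1303 of 66294 in the 6 libraries were not whole). The 72 unmarked PH and sham libraries at 52 h and 96 h were fitted in 1 edgeR 4.0.16 quasi-likelihood model (R 4.3.3, TMM, a term per group), with genes at 0.5 CPM or more in at least 1 of the 6 libraries tested and p-values adjusted over all of them. The paper gives separate mice for PH replicates of males, and for sham libraries this is not given in the sources used here, so that their spread may be technical. Members and gene lists were chosen with earlier results of these data known. Genes named are the 15 largest changes in each direction among called genes without overlap and with a mean of at least 10 counts, the 4 most abundant called members of each list (the 2 most abundant where none was called), and for differences the 4 largest in each direction. Others were chosen after their values were seen, and some genes that the rule names are not reported here. Symbols and gene positions are from GENCODE vM21 and promoter windows from RefSeq (GRCm38.p6). Tested on simulated data for 11010 genes of this comparison, edgeR called 38% of 2-fold and 83% of 4-fold changes, and 60% and 83% by the adjusted p alone. A true 2-fold change often misses the 2-fold minimum of the call. The changed genes were drawn from those above a minimum level, so that the rates do not cover lower genes. The authors excluded 9 genes, Fga and some mitochondrial and Mup genes. Alternatives were DESeq2 1.42.0, RLE scaling, other filters and thresholds, the mix as a covariate, only the mix 13 libraries of VOM at 96 h with the other groups kept, the replicate block, the X library and each library left out.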

Additional observations from a re-analysis of the deposited data

Results flagged for a closer look

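The response to PH differed between VOM at 96 h and another group for 41 of the named genes, by the test of the difference of the log2 fold changes in edgeR's quasi-likelihood fit, at an adjusted p under 0.1 and a difference of at least 1 on the log2 scale. The values are VOM at 96 h minus the other group. Of these 41 differences, 25 were not called with the mix as a covariate, 13 with only the mix 13 libraries of VOM at 96 h, 11 with only the compared groups in the fit and 9 with the replicate block.

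Against young males at 96 h, 15 of these genes differed. The interferon-stimulated genes had differences of Isg15 4.48, Ifit1 4.24, Irf7 3.43 and Cxcl10 3.58. Other larger responses in VOM at 96 h were Rrm2 2.71, Aurka 3.38, Spc25 2.04, Cenpa 2.42, Ect2 4.08, Dck 1.82 and Mad2l1 2.88. Smaller or more negative responses were Slc13a5 -3.03, Fabp4 -2.66, Vasn -2.57 and H2-Q1 -2.45.

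Against old males at 96 h, 8 of these genes differed. The interferon-stimulated gene was Iigp1, at 1.07. Other larger responses in VOM at 96 h were Zbtb16 3.94 and Txnip 3.7. Smaller or more negative responses were Cyp8b1 -2.64, Clec2h -3.99, Ocrl -3.43, Cib3 -3.13 and Dynlt1a -2.86.

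Against very old females at 96 h, 9 of these genes differed. The interferon-stimulated genes had differences of Isg15 5.42, Ifit1 4.52, Irf7 3.63 and Cxcl10 3.1. The other larger response in VOM at 96 h was that of Cdkn2c, at 1.43. Smaller or more negative responses were Mcm10 -1.97, Ntrk2 -4.37, Dbf4 -3.98 and Mup3 -1.56.

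Against very old males at 52 h, 9 of these genes differed. The interferon-stimulated genes had differences of Isg15 6.6, Ifit1 6.1, Irf7 3.6 and Cxcl10 3.91. Other larger responses in VOM at 96 h were Cdk1 3.18, Mki67 2.26 and Ccnb2 3.05. Smaller or more negative responses were Fabp4 -5.1 and Cidec -4.62.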

How the results depend on the processing

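No gene called in both fits was called in opposite directions under any of the settings run. Of the 819 called genes 3 changed sign without PH 1, where they were not called, and of the 1518 that differed from 52 h 1 did so when thinned and 1 without sham 1. With the mix as a covariate 345 genes were higher and 141 lower after PH, and 467 of these 486 were among the 819. There were 562 lower at an adjusted p under 0.05 with no fold minimum. Genes that differed from YM numbered 45 with the mix, 174 with only the mix 13 libraries of VOM at 96 h, 164 with only the compared groups in the fit and 178 with the replicate block. In the mix 13 setting the libraries of the other groups were all kept, and those of YM and OM at 96 h came from other mixes. Those that differed from OM were 1, 34, 24 and 18 in the same order and 53 with the 6 VOM libraries, but not those of OM, thinned to the lowest total of the 6, a setting chosen after seeing the data. Those that differed from VOF were 83 with the mix and 164 with only the compared groups, and from 52 h 936 with the mix. The cause was not tested. With 1 of the 6 libraries left out the ranges were 462 to 555 higher, 200 to 293 lower, 197 to 349 against YM, 44 to 105 against OM, 250 to 321 against VOF and 1325 to 1561 against 52 h. The counts against YM moved most without sham 3 (197) and against OM without PH 3 (49), sham 2 (45) or sham 3 (44).

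With the replicate number as a block, 499 genes were higher and 234 lower, and 219 differed from VOF and 1331 from 52 h. The deviations of same-numbered libraries from their group means correlated at 0.17, 0.04 and -0.19, and 2 of 6 libraries correlated best with their own number, so the numbers were not taken to pair libraries. Depth limits the sham side most, where the shallowest library held 639524 counts.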
